A study of Homo sapiens with 12 samples.

Results

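The 8 genes described here encode coactivators and transcription factors that govern mitochondrial genes, together with PNRC1, another nuclear receptor coactivator. They were chosen by name, with no measured value in the rule but with earlier results of these data known: PPARGC1A, PPRC1, PNRC1, ESRRA, NRF1, TFAM, TFB1M and TFB2M. They are 8 of the 11963 genes with a probe set naming that gene alone, and all 8 were among the 7178 genes bright enough to be tested. Together they had 14 of the 22215 probe sets that are not controls.

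RNA was measured on 12 Affymetrix arrays from 5 established human melanoma cell lines, Malme3M, SkMel-19, SkMel-28, SkMel-1 and SkMel-5, all carrying BRAFV600E, a mutant kinase that drives MEK and ERK signalling. The cells of each line received PLX4032 (vemurafenib), an inhibitor of RAF kinases, at 250 nM for 8 h, or DMSO, its solvent, alone. A dose of 1000 nM was given to SkMel-19 and Malme3M only. Every line and dose had 1 array, so the lines are the replicates, and a change in a single line has no replicate check. The p-values therefore weigh the mean change against its spread between these lines, an estimate that also borrows from the other genes. With 1 array each, that spread includes array noise. In the comparisons of SkMel-19 and Malme3M alone, all doses shared a single estimate of it.

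The arrays had median signals between 102.5 and 130.4. DUSP6, an ERK phosphatase gene and direct output of the pathway, fell in all 5 lines at 250 nM (log2 fold change -5.04, SE 0.57, limma adjusted p = 0.000679). Of 10 measured melanocyte markers 8 were above a signal of 85.7, the level of the filter on dim genes, on every array. Their summed signal lay between 38782 and 67314 in DMSO and between 49214 and 72862 at 250 nM. For blood and endothelial cells, 6 of 8 markers lay below that level on every array, including PTPRC and PECAM1, and the sum of the 8 lay between 164.7 and 274.9 in DMSO and between 167.3 and 337 at 250 nM. Fibroblast markers COL3A1, PDGFRA, PDGFRB, THY1 and POSTN also lay below it throughout, whereas COL1A1, LUM and ACTA2 lay above it. The fibroblast sum over 11 markers was 769.9 to 1946 in DMSO and 775.2 to 2266 at 250 nM. Of 7 epithelial markers KRT5, KRT14, KRT19 and EPCAM were below it throughout and KRT18 above it. KRT8 and CDH1, also among the 7, were each above it on some arrays and below it on others. The sum of the 7 was 695.8 to 4940 in DMSO and 640.9 to 5042 at 250 nM. KRT18 ran only from 304.3 to 781 in DMSO, so the highest sums came mostly from KRT8 and CDH1. At 1000 nM the sums were 69376 to 70038 for melanocyte, 149.4 to 250.8 for blood and endothelial, 826.5 to 1613 for fibroblast and 573.5 to 5268 for epithelial markers. The part of these markers in the results was not tested.

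PPARGC1A does not bind DNA itself. It docks on nuclear receptors such as ESRRA (estrogen-related receptor alpha) and on the nuclear respiratory factor NRF1, which switch on nuclear genes for respiration, and it can raise the expression of these partners. Downstream stand TFAM, which packages mitochondrial DNA, and TFB2M, which with TFAM and the polymerase POLRMT starts mitochondrial transcription. TFB1M, a relative of TFB2M, methylates the RNA of the small mitochondrial ribosome subunit. In melanocytes and melanoma PPARGC1A is known as a target of the lineage factor MITF.

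RefSeq promoter windows on GRCh38.p14, from 250 bases before to 50 bases after a transcript start, matched 7 of the 8 genes, with 8 starts. NRF1 was the gene not matched. PPARGC1A had 2 starts 591804 bases apart, and its single probe set gives 1 value for the gene. The stretches shown next compare the E-boxes near the 2 starts, since letters of this kind are what MITF and its relatives bind. Capitals mark CATGTG or CACGTG, read 5′ to 3′ on the gene's strand.
PPARGC1A, upstream start, chr4:24472956-24473055, minus strand: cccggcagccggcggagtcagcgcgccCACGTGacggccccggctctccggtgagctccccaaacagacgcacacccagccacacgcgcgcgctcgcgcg
PPARGC1A, downstream start, chr4:23881152-23881251, minus strand: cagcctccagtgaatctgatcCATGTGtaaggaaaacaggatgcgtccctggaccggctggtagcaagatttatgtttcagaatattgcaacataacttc
CATGTG, on either strand, was found in 11.1% of all 35116 windows of this length and in those of 2 members, PPARGC1A and ESRRA. CACGTG was found in 7.26% of all windows and in 1 member, PPARGC1A.

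The members that share an NRF1-type core are shown for a second reason: 3 of them, TFAM, TFB1M and TFB2M, fell together in the results that follow, whereas ESRRA did not pass the test and PNRC1 rose. Capitals mark GCNTGCGC on either strand, which includes overlapping matches in TFB1M and TFB2M.
TFAM, chr10:58385313-58385392, plus strand: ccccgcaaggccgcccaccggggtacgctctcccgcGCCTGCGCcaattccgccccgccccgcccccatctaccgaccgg
TFB1M, chr6:155314571-155314650, minus strand: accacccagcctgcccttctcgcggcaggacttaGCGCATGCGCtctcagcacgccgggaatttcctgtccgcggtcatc
TFB2M, chr1:246566262-246566308, minus strand: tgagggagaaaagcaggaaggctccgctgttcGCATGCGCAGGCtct
ESRRA, chr11:64305459-64305523, plus strand: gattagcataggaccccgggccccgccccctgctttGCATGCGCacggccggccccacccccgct
PNRC1, chr6:89080521-89080600, plus strand: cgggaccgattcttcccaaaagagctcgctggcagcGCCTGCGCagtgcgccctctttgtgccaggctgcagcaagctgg
This core was found in 5 of the 7 members with a window and in 12% of all windows. The ETS core CGGAAG, the letters bound by GABPA and other ETS factors, was found on either strand in 3 members, PNRC1, TFB1M and TFB2M, and in 19.5% of all windows. The ERR half-site AAGGTCA was found in 0 members and in 3.92% of all windows. In the PPRC1 window none of these 5 sets of letters was found. Each match is a string of letters, not a measured binding site.

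The first comparison asked how the 8 genes changed within 8 h of RAF inhibition at 250 nM. PPARGC1A and PNRC1 rose, PPRC1, TFAM, TFB1M and TFB2M fell, and ESRRA and NRF1 did not pass the test. Thus 6 of 8 members were called at a limma adjusted p (Benjamini-Hochberg over all 7178 genes, cell line as a block) under 0.05, beside 28.3% of all genes tested. In the upward direction 2 of 8 passed, beside 15.2% of all genes, and in the downward direction 4 of 8, beside 13.1%. The median log2 fold change of the 8 was -0.35, and that of all genes tested was 0.03. These 6 genes had 1 direction of change across the 5 lines, as did 37.5% of all genes tested. In bulk RNA, fewer cells of a kind and less RNA per cell cannot be told apart.

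Of the 8 genes, PPARGC1A had the widest ratio of levels between lines. In DMSO its signal was 378.3 in SkMel-1, 344.7 in SkMel-19, 104 in SkMel-28, 91.2 in Malme3M and 84.2 in SkMel-5. At 250 nM it was 1846 in SkMel-1, 1169 in SkMel-19, 385.4 in SkMel-28, 567.5 in Malme3M and 185.7 in SkMel-5. Every line was higher with the inhibitor, but the groups overlapped, because SkMel-5 with the inhibitor stayed below SkMel-1 and SkMel-19 without it. The log2 fold change was 1.86 (SE 0.18 over 5 lines, with a limma adjusted p of 0.000397), a 3.62-fold rise on the scale of log2(signal + 12). Its 95% interval ran from 2.71-fold to 4.83-fold.

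PNRC1, which binds nuclear receptors through a proline-rich stretch and is also known to bring the mRNA decapping enzyme into the nucleolus, rose to a similar level in most lines. Its DMSO signal was 190.8 in SkMel-1, 253.7 in SkMel-19, 269.7 in SkMel-5, 283.7 in Malme3M and 721.2 in SkMel-28. With 250 nM it was 1456 in SkMel-1, 1206 in SkMel-19, 877.9 in SkMel-5, 1550 in Malme3M and 1657 in SkMel-28. The groups did not overlap, and only SkMel-28 was high before treatment. Its log2 fold change was 2.06 (SE 0.21 over 5 lines, with a limma adjusted p of 0.000397). The highest line stood 3.78-fold above the lowest in DMSO and 1.89-fold at 250 nM. For PPARGC1A the same ratio was 4.49 in DMSO and 9.94 at 250 nM.

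**Figure D1:**
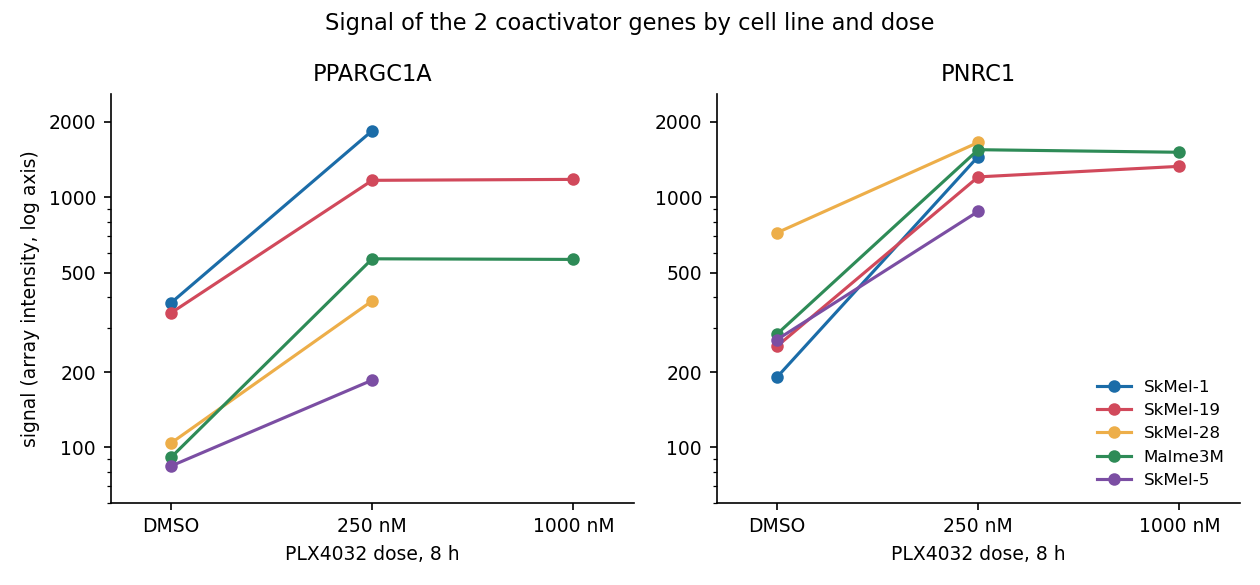
Signal (array intensity, log axis) of PPARGC1A (left) and PNRC1 (right) at each PLX4032 dose; each point is 1 array and each line joins the arrays of 1 cell line. PPARGC1A ran from 84.2 to 378.3 in DMSO and from 185.7 to 1846 at 250 nM, PNRC1 from 190.8 to 721.2 and from 877.9 to 1657, and the points at 1000 nM lie level with those at 250 nM.

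PPRC1, the relative of PPARGC1A that is known for its rapid induction by serum, went the other way. Its signal in DMSO was 354.1 in SkMel-1, 331.7 in SkMel-5, 324.1 in SkMel-28, 544.7 in SkMel-19 and 347.4 in Malme3M. At 250 nM the values were 114.6, 255.9, 204.2, 323.1 and 227.4 in the same order of lines. The groups did not overlap, but the highest treated line, SkMel-19, lay just under the lowest untreated one. The log2 fold change was -0.77 (SE 0.16 over 5 lines, with a limma adjusted p of 0.00838). SkMel-1 had the largest fall, by 1.53 on the log2 scale, and SkMel-5 the smallest, by 0.36.

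Of the DNA-binding partners, ESRRA stood at 0.03 (SE 0.11, limma adjusted p = 0.837), with a 95% interval from -0.21 to 0.28. It was higher in 2 lines and lower in 3, with single lines between -0.21 and 0.37. Its DMSO signal was 579.3 in SkMel-1, 571.7 in SkMel-19, 365.3 in SkMel-28, 364.9 in SkMel-5 and 210.4 in Malme3M. The order of the lines thus had SkMel-1 and SkMel-19 highest, as for PPARGC1A, with 1 array each. A second, dimmer ESRRA probe set gave -0.18 (SE 0.16, limma adjusted p = 0.523 over all probe sets).

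NRF1 stood at -0.17 (SE 0.11, limma adjusted p = 0.280), with an interval from -0.43 to 0.08, and was lower in 4 of 5 lines. Its signal ran from 133 to 280.8 in DMSO and from 126.9 to 231.5 at 250 nM, so the groups overlapped. Its other 3 probe sets gave -0.10, -0.20 and -0.38, and none passed over all probe sets. Of those, 2 lay below a signal of 85.7 on all 12 arrays.

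TFAM, TFB1M and TFB2M all fell, whereas the polymerase gene POLRMT, which acts with TFAM and TFB2M, did not pass the test (-0.21, limma adjusted p = 0.152). TFB2M had the smallest adjusted p of the 4 that fell: its DMSO signal was 904.3 in SkMel-1, 2238 in SkMel-5, 1503 in SkMel-28, 896.2 in SkMel-19 and 1539 in Malme3M. At 250 nM it was 455.6, 1437, 916.3, 498.8 and 739.8 in the same order. Every line fell by between 0.64 and 1.05 on the log2 scale, while the groups overlapped because untreated lines differed 2.50-fold. The log2 fold change was -0.84 (SE 0.08 over 5 lines, with a limma adjusted p of 0.000400), a 1.79-fold fall.

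TFB1M had DMSO signals of 336.3 in SkMel-1, 346.3 in SkMel-5, 570.5 in SkMel-28, 481.6 in SkMel-19 and 426.1 in Malme3M. At 250 nM these were 271.7, 267, 298.6, 293.8 and 202.8. The groups did not overlap, and Malme3M had the largest fall. The log2 fold change was -0.66 (SE 0.13 over 5 lines, with a limma adjusted p of 0.00627).

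TFAM, on its reported probe set, was high in SkMel-19 and similar in the others. Its DMSO signal was 1198.5 in SkMel-19, 617.7 in SkMel-1, 613.9 in SkMel-28, 576.5 in SkMel-5 and 521.9 in Malme3M. With the inhibitor it was 859.3, 380.9, 451.7, 422.3 and 342.7 in that order. On the reported probe sets of the 6 members called, TFAM varied least between lines, with falls between 0.43 and 0.68 on the log2 scale. Its log2 fold change was -0.52 (SE 0.08 over 5 lines, with a limma adjusted p of 0.00258). The groups overlapped only through SkMel-19. This probe set carries the _x_at suffix, given to sets whose probes may also detect similar sequences. The second TFAM probe set, which is not of that kind, fell as well (-0.45, SE 0.11, limma adjusted p = 0.0343 over all probe sets). Its changes varied more, from -0.74 to -0.25 (SD 0.22, against 0.11 on the reported TFAM set and 0.17 for TFB2M). In DMSO it was 572.7 in SkMel-19, 462.5 in SkMel-28 and 281.1 to 333.4 in the other lines. The third gave -0.33 (SE 0.12) and did not pass (limma adjusted p = 0.112), although it was lower in all 5 lines.

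**Figure D2:**
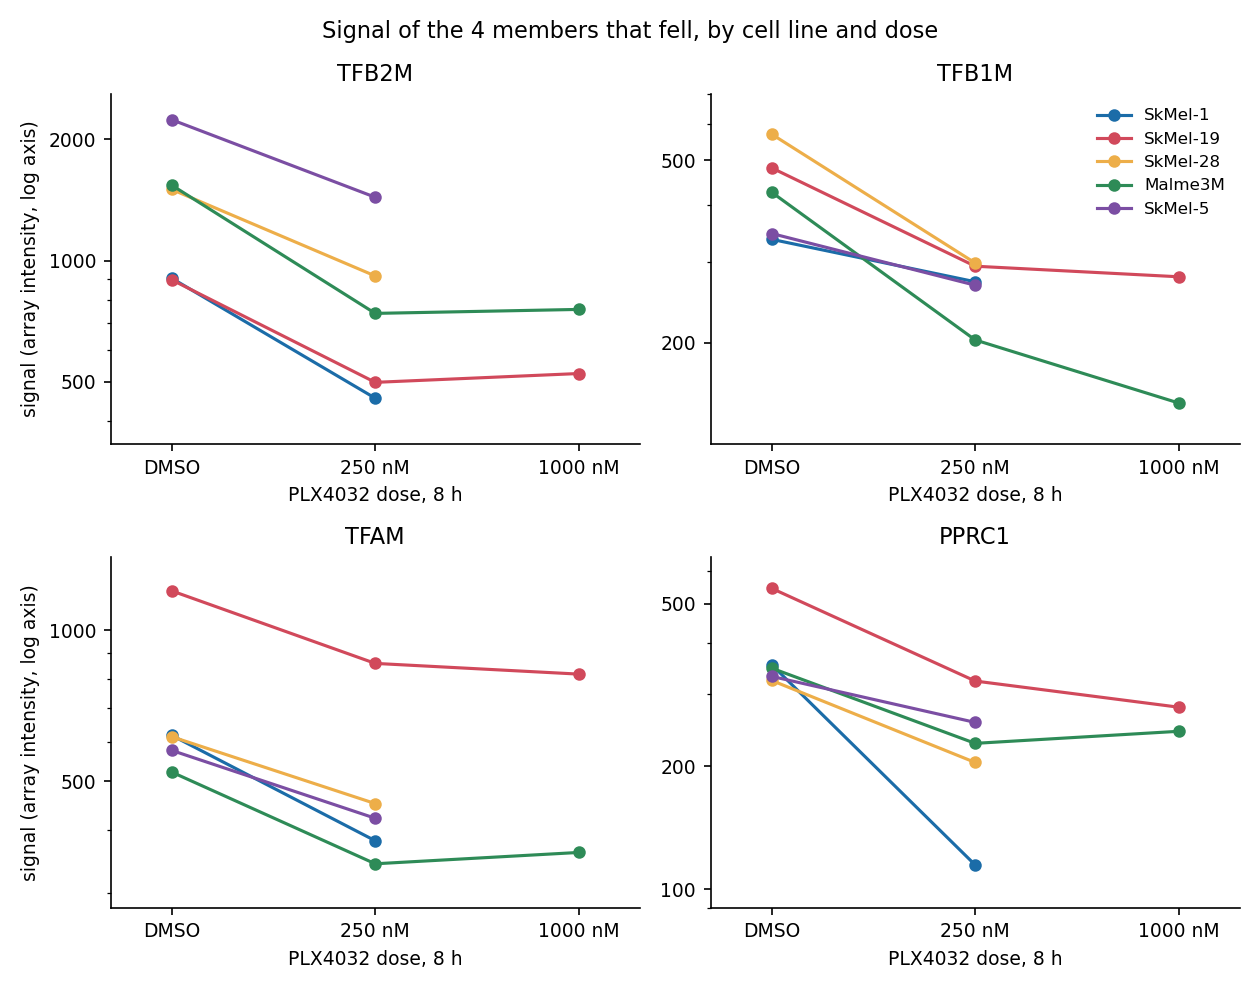
Signal (array intensity, log axis) of TFB2M, TFB1M, TFAM and PPRC1 at each PLX4032 dose; each point is 1 array and each line joins the arrays of 1 cell line. All 5 lines were lower at 250 nM than in DMSO for each gene, SkMel-19 was highest for TFAM (1198.5 in DMSO) and PPRC1 (544.7), and SkMel-5 was highest for TFB2M (2238).

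Across probe sets, 7 of the 14 were called when every probe set was fitted without a filter, beside 10.1% of all 22215 probe sets. The 7 were those of PPARGC1A, PPRC1, PNRC1, TFB1M and TFB2M and 2 of TFAM. For 3 of the 8 members, PPRC1, PNRC1 and TFB1M, the DMSO and 250 nM signals did not overlap, beside 1.85% of all genes tested. Leaving out each line in turn kept 6 members called every time.

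**Figure D3:**
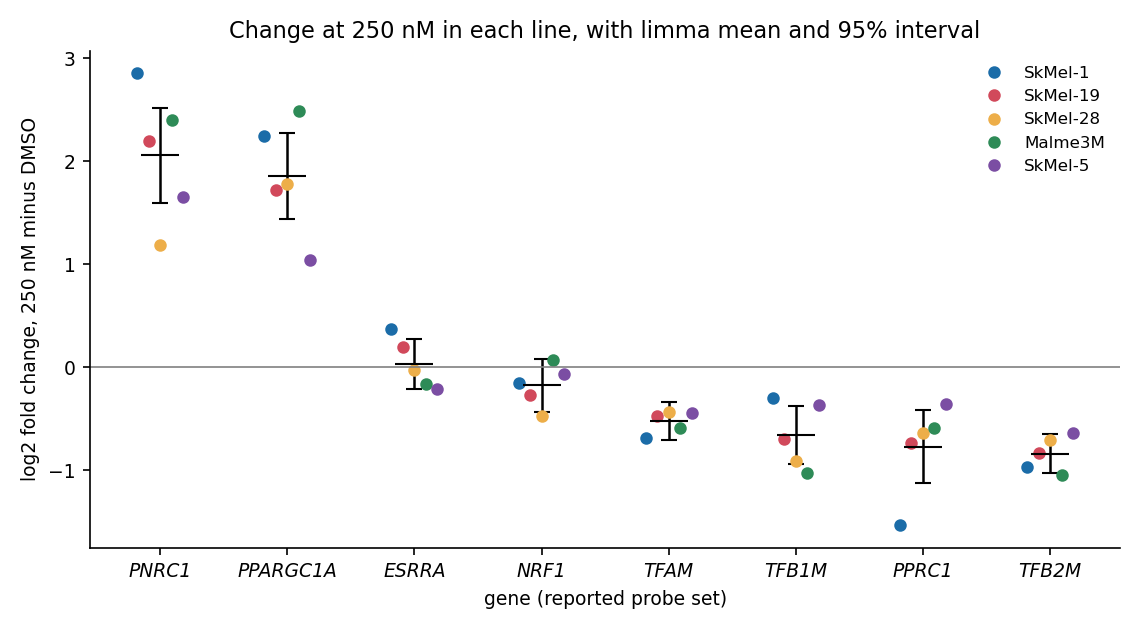
Log2 fold change at 250 nM (250 nM minus DMSO) of the 8 genes; coloured points are the 5 cell lines, the black bar is the limma mean and the whiskers its 95% interval. PNRC1 (2.06) and PPARGC1A (1.86) lie above 0 in every line, TFAM, TFB1M, PPRC1 and TFB2M below 0 in every line, and the intervals of ESRRA and NRF1 include 0.

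The relation of the PPARGC1A change to its starting level was read line by line, since 5 lines allow no correlation and the change contains the DMSO value. From the highest DMSO level to the lowest, the log2 change was 2.25 in SkMel-1, 1.73 in SkMel-19, 1.78 in SkMel-28, 2.49 in Malme3M and 1.04 in SkMel-5. The line with the largest change, Malme3M, and the one with the smallest, SkMel-5, had nearly the same DMSO level, 91.2 and 84.2. A low starting level was thus found with both the largest and the smallest change. In added signal the order differed: 1468 in SkMel-1, 824.2 in SkMel-19, 476.3 in Malme3M, 281.4 in SkMel-28 and 101.5 in SkMel-5. Ranked by the mean of both arrays, SkMel-1 and SkMel-19 remained the highest lines and SkMel-5 the lowest.

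The DMSO levels formed a high pair and a low trio. SkMel-19 stood 1.62 above SkMel-28 on the log2 scale, whereas SkMel-1 and SkMel-19 differed by 0.13 and Malme3M and SkMel-5 by 0.10. Centring each array on its median exchanged the first pair and also the last, and quantile normalization exchanged the last, so SkMel-1 and SkMel-19 have no settled order, nor do Malme3M and SkMel-5, while SkMel-28 led the trio under each of the 3 scalings. The SkMel-5 value of 84.2 lay under 85.7. The added 12 bore most on Malme3M, whose change was 2.62 with 1 added and 2.13 with 50, against 1.13 and 0.81 in SkMel-5.

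MITF did not follow PPARGC1A between lines. Its DMSO signal was 4900 in SkMel-1, 5493 in SkMel-19, 5931 in Malme3M, 6016 in SkMel-5 and 6268 in SkMel-28, so the line with the most PPARGC1A had the least MITF signal. These MITF signals spanned only 1.28-fold, against 4.49-fold for PPARGC1A, with 1 array each. Their order is therefore not settled, and the part of MITF in the PPARGC1A levels was not tested. Over the 5 lines MITF stood at 0.11 at 250 nM (SE 0.07, limma adjusted p = 0.247). The SkMel-5 array with the smallest PPARGC1A rise also kept the most DUSP6 signal, 652.3 at 250 nM, against 12.2 to 50.3 in the other lines. SPRY2 and IER3, other ERK output genes, did not set SkMel-5 apart in this way. At 250 nM SPRY2 was 153.7 in SkMel-5 and ran from 32.8 to 160.1 over the lines, with SkMel-1 highest and SkMel-5 next. IER3 was 893.3 in SkMel-5 and ran from 160.3 to 931.1, with SkMel-28 highest and SkMel-5 next. The part of remaining ERK output in the PPARGC1A value was not tested.

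Over all 12 arrays, the gene least like PPARGC1A in level was another member. TFB2M had a Pearson r of -0.98 with PPARGC1A over log2 values, the lowest of 7177 genes. Without the 2 arrays farthest from the median PPARGC1A level r was -0.99 over 10 arrays, and without any 1 line it lay between -0.996 and -0.977. The arrays share lines and treatment, so the 12 points are not independent, and TFB2M was singled out after its value was seen. Both parts of the pattern can be read from the signals: SkMel-1 and SkMel-19 had the most PPARGC1A and the least TFB2M in DMSO, and treatment moved the genes in opposite directions.

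**Figure D4:**
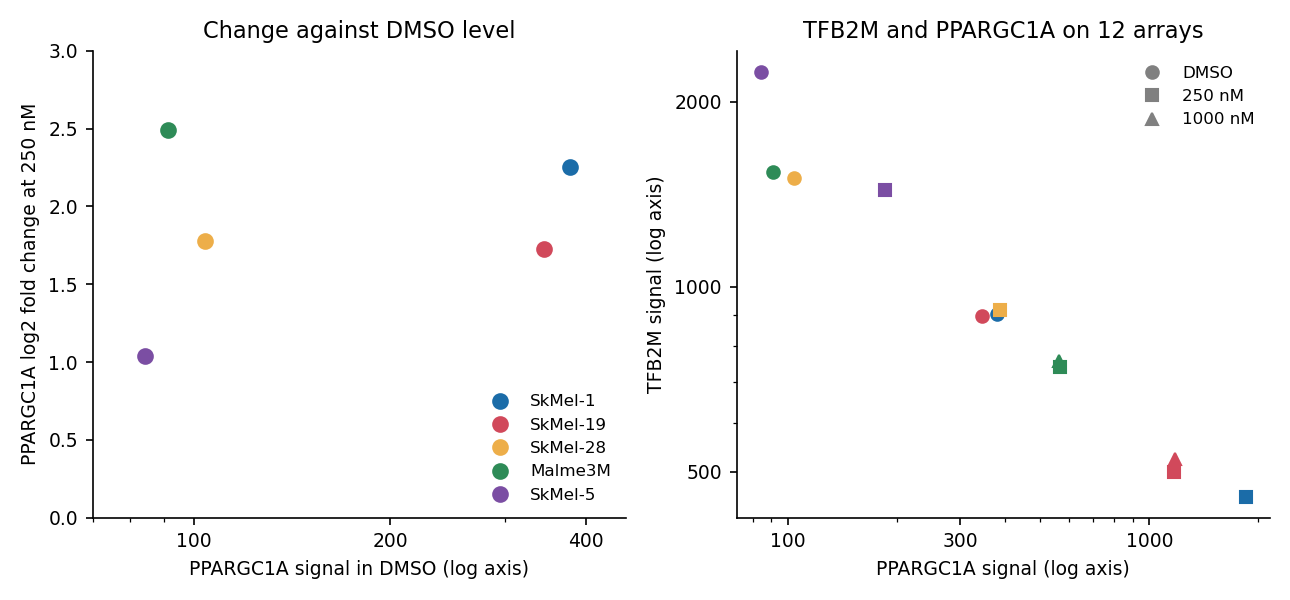
Left, the log2 fold change of PPARGC1A at 250 nM against its DMSO signal (log axis) in the 5 lines; right, TFB2M signal against PPARGC1A signal on the 12 arrays (both axes log; colour is the cell line, shape the dose). The change runs from 1.04 (SkMel-5) to 2.49 (Malme3M) at nearly the same DMSO signal, and TFB2M declines as PPARGC1A increases across the arrays (r = -0.98).

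The 5 genes most like PPARGC1A in level over the 12 arrays were the iron-sulphur scaffold gene ISCU (r = 0.95), YPEL5 (0.94), the RNA demethylase gene FTO (0.94), the homeobox gene MEIS2 (0.92) and IFT52 (0.91), of which IFT52 did not pass the test at 250 nM. With each line's mean subtracted, so that only the response is left, they were VPS8 (0.997), the prostaglandin-degrading HPGD (0.996), BHLHE41 (0.994), ZZZ3 (0.994) and OSBPL9 (0.992). By the same measure PNRC1 had an r of 0.97 with PPARGC1A. The genes most like PNRC1 in level were CTH (0.90), LPIN1 (0.89), TRAK2 (0.89), GOLGB1 (0.89) and ENTREP1 (0.89), and in response RNF24 (0.997), SLC38A6 (0.994), RBBP7 (0.993), ATG14 (0.992) and DLD (0.991), of which RBBP7 did not pass. The second measure scores changes in proportion to those of PPARGC1A or PNRC1 from line to line, whether they are large or small. RBBP7 scored high with a log2 fold change of 0.13. A gene that merely rises evenly in all lines also scores high, so a shared rise is part of the 0.97 of PNRC1. The arrays also share lines and scaling.

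The comparison at 1000 nM asked whether the same genes moved at the higher dose in SkMel-19 and Malme3M. Again PPARGC1A and PNRC1 rose and PPRC1, TFAM, TFB1M and TFB2M fell: 6 of 8 members passed, beside 11.2% of all genes, with 2 higher beside 5.29% and 4 lower beside 5.89%. PPARGC1A reached a signal of 1179 in SkMel-19 and 564.3 in Malme3M (2.11 on the log2 scale, SE 0.21 over 2 lines, with a limma adjusted p of 0.00600). PNRC1 reached 1330 and 1514 (2.35, SE 0.11, limma adjusted p = 0.00101). TFB1M fell to 278.6 and 147.7 (-1.11, SE 0.19, limma adjusted p = 0.0213) and TFB2M to 524.6 and 756.8 (-0.89, SE 0.12, limma adjusted p = 0.0119). TFAM (-0.53, SE 0.11, limma adjusted p = 0.0397) and PPRC1 (-0.71, SE 0.16, limma adjusted p = 0.0409) passed narrowly. Of the alternative settings that could test them, TFAM passed in 5 of 11 and PPRC1 in 6 of 10. Without the filter on dim genes the limma adjusted p was 0.0628 for TFAM and 0.0796 for PPRC1, and with dim values raised to the filter level 0.0586 and 0.0632. Without a variance trend it was 0.05003 and 0.0516. TFAM was also lost after quantile normalization (0.0505) and as the mean of its probe sets (0.0847), and both were lost without the cell line block. ESRRA stood at -0.04 (SE 0.14) and NRF1 at -0.32 (SE 0.17), and neither passed (limma adjusted p = 0.857 and 0.237).

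At 250 nM in these 2 lines the same 6 genes passed, beside 11.3% of all genes (5.98% higher and 5.36% lower), with log2 fold changes of 2.11 for PPARGC1A, 2.3 for PNRC1, -0.66 for PPRC1, -0.53 for TFAM, -0.86 for TFB1M and -0.94 for TFB2M. Without the filter on dim genes 3 of 8 passed, PPARGC1A, PNRC1 and TFB2M. Both doses were set against the same DMSO arrays, so both sets of values are not independent.

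The direct comparison of 1000 nM with 250 nM called 0 of the 8 members and 0 of 7178 genes with limma, or 0% of all genes, and at an unadjusted p under 0.05 it had 0 members and 75 genes. For PPARGC1A the difference was 0.0021 with a 95% interval from -0.51 to 0.51 on the log2 scale, for PNRC1 0.05 (-0.22 to 0.33), for TFAM 0.0013 (-0.28 to 0.28) and for TFB2M 0.05 (-0.24 to 0.34). TFB1M differed most among the members, at -0.25 (-0.71 to 0.21), with Malme3M at -0.43 and SkMel-19 at -0.07. NRF1 stood at -0.22 (-0.63 to 0.18). These intervals rest on 2 lines, and a missed threshold does not show that the doses acted alike.

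The other genes around the members were taken from lists drawn up by role, with earlier results of these data known. Their counts at 250 nM stand beside 15.2% of all genes higher and 13.1% lower, and no difference between a list and all genes was tested. Among nuclear receptor coactivators and corepressors, 3 of 14 tested genes rose (21.4%) and 2 fell (14.3%), both shares near those of all genes, with a median log2 fold change of -0.03. The rises were NCOA4, the coactivator that also delivers ferritin for degradation (0.47, SE 0.13), NCOA2 (0.41, SE 0.08) and NCOA1 (0.34, SE 0.10), each higher in all 5 lines. PNRC2, the close relative of PNRC1, stood at 0.02 (SE 0.06, limma adjusted p = 0.838). Its signal was well above that of the filter, from 1314 in SkMel-1 to 3930 in SkMel-28 in DMSO. PPARGC1B, the third member of the PPARGC1A family, was not analysed here.

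Of 17 other transcription factors of mitochondrial genes tested, 4 rose (23.5%, beside 15.2% of all genes) and 2 fell (11.8%, beside 13.1%), with a median of 0.04. FOXO3, a factor held out of the nucleus by growth signalling (0.74, SE 0.13), the thyroid hormone receptor gene THRA (0.57, SE 0.12) and MEF2C (0.55, SE 0.08) rose. GABPA, the DNA-binding part of the nuclear respiratory factor of the ETS family, stood at 0.0055 (SE 0.12, limma adjusted p = 0.977).

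Genes that copy and transcribe mitochondrial DNA showed 2 rises and 2 falls among 16 tested, 12.5% each way and near the 15.2% and 13.1% of all genes, with a median of -0.11. TWNK, the replicative helicase of mitochondria, fell the most (-0.98, SE 0.11, limma adjusted p = 0.000542). Its DMSO signal ran from 303.3 to 437.5 and its 250 nM signal from 129.6 to 189.7, so the groups did not overlap. MTERF3, a negative regulator of mitochondrial transcription, fell (-0.49, SE 0.08), and the mitochondrial thymidine kinase gene TK2 rose (0.43, SE 0.11). POLRMT, at -0.21 (SE 0.10), was lower in 4 of 5 lines. At 1000 nM, TWNK (-0.96, SE 0.14) and MTERF3 (-0.66, SE 0.15) passed again.

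For mitochondrial RNA processing and translation control, 1 of 21 tested genes rose (4.76%, beside 15.2% of all genes) and 4 fell (19%, beside 13.1%), with a median of -0.08. The methyltransferase MRM2 (-0.44, SE 0.12) and FASTKD3 (-0.29, SE 0.09) fell, and FASTKD1 rose (0.44, SE 0.14). At 1000 nM 0 of the 21 passed with limma, beside 11.2% of all genes, and 3 had an unadjusted p under 0.05.

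Of 19 known PPARGC1A targets outside the respiratory chain 1 rose (5.26%, beside 15.2% of all genes), the citrate synthase gene CS (0.21, SE 0.07), and 0 fell with limma, beside 13.1%. At an unadjusted p under 0.05 there were 5 of the 19, beside 2970 of all 7178 genes. The median of the 19 was 0.03 and equalled that of all genes tested to 2 decimals. Of 31 respiratory chain and ATP synthase genes 11 rose (35.5%, beside 15.2% of all genes) and 1 fell (3.23%, beside 13.1%), with a median of 0.14. COX10, which makes the heme of cytochrome oxidase (0.42, SE 0.11), and NDUFB5 of complex I (0.35, SE 0.08) rose, and SCO2, a copper chaperone of cytochrome oxidase, fell (-0.47, SE 0.09). At 1000 nM 1 rose and 1 fell (3.23% each, beside 5.29% and 5.89% of all genes): NDUFB5 (0.38, SE 0.08) and SCO2 (-0.53, SE 0.12). COX10 stood at -0.14 (SE 0.30) there. The median of the 31 at 1000 nM was 0.18, beside 0.04 over all genes. An unadjusted p under 0.05 was reached by 16 of the 31, beside 2313 of all 7178 genes. At 250 nM in the same 2 lines 1 also rose and 1 fell (3.23% each, beside 5.98% and 5.36% of all genes), with a median of 0.14.

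Among genes that act upstream of PPARGC1A, 5 of 27 tested rose (18.5%) and 4 fell (14.8%), shares near the 15.2% and 13.1% of all genes, with a median of 0.09. TFEB, a relative of MITF that binds similar E-boxes, rose (1.26, SE 0.21, limma adjusted p = 0.00345). It was dim in DMSO, with signals from 19.7 to 134.7, so the size of its rise depends on the added 12. The melanocortin receptor gene MC1R, which raises cyclic AMP, fell (-2.10, SE 0.23), as did SIK1, a kinase that restrains CREB coactivators (-1.03, SE 0.17). Both MC1R (-2.64, SE 0.15) and SIK1 (-0.95, SE 0.16) fell at 1000 nM as well, and TFEB rose (1.74, SE 0.17).

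Genes of mRNA decapping and nonsense-mediated decay were listed because of PNRC1 and PNRC2, though not every listed gene is a partner of these. Among 16 tested there were 0 rises with limma (beside 15.2% of all genes) and 2 falls (12.5%, beside 13.1%), with a median of -0.14. At an unadjusted p under 0.05 there were 6 of the 16, beside 2970 of all 7178 genes. The falls were the scavenger decapping enzyme DCPS (-0.48, SE 0.10) and LSM7 (-0.28, SE 0.09, lower in 4 of 5 lines). At 1000 nM 0 of the 16 passed with limma, beside 11.2% of all genes. Of the 16, 3 had an unadjusted p under 0.05 there, beside 2313 of all 7178 genes.

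**Figure D5:**
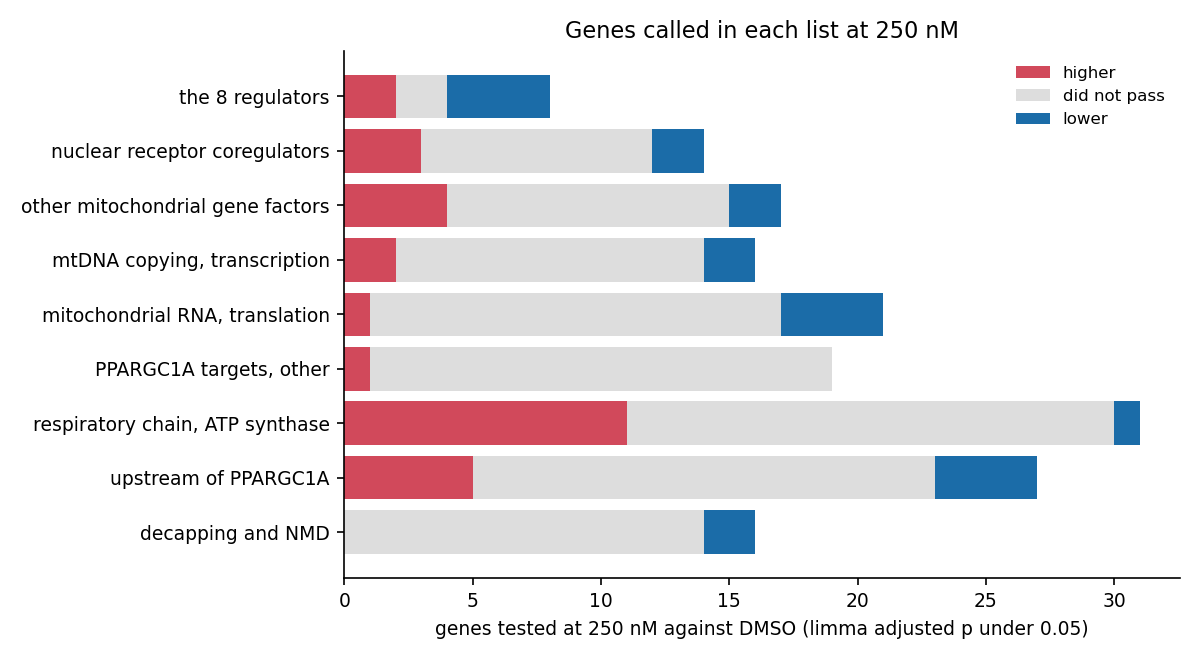
Number of genes tested in each list at 250 nM against DMSO, split into those higher, those that did not pass and those lower (limma adjusted p under 0.05). The 8 regulators had 2 higher and 4 lower, the respiratory chain list 11 of 31 higher, and the other PPARGC1A targets 1 of 19 higher.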

How the data were processed

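The values deposited by the authors are linear intensities of 22277 probe sets, 1 column for each of 12 arrays, produced by GCOS per the submitters' processing notes. Its version, probe summary and background treatment are not given in the sources used here. With 2% of values trimmed at either end, array means were 500.13 to 500.15, so arrays were used as deposited, as log2(value + 12), 12 being the 20th percentile. After removal of 62 control probe sets, a single gene symbol was given for 19064, more than 1 for 1043 and no symbol for 2108. The brightest probe set stood for a gene, and genes in the upper 60% by mean log2 value (at least 6.61, a signal of 85.7) were tested with limma 3.58.1 in R 4.3.3 (trend, cell line as a block): 10 arrays for 250 nM, the 6 arrays of SkMel-19 and Malme3M for the rest. With group means subtracted, arrays of one line correlated at 0.898 to 0.931 and arrays of different lines at no more than -0.135. Subtracting group means by itself pushes the correlations between different lines below 0. The pairing comes from the labelled line. The fit was checked on simulated data. The number of arrays limits the precision. Alternatives were pseudocounts of 1 and 50, other filters, median centring, quantile normalization, no trend, no block, the mean of a gene's probe sets, 12 arrays in one fit, and each line left out. Fold changes on the scale used understate changes of dim genes.

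Members and lists were chosen with earlier results of these data known. Named genes are the 8 members, up to 3 largest called changes per list (the 2 smallest p where none passed), PPARGC1B, PNRC2, GABPA, POLRMT, MITF and DUSP6, and the 5 genes most alike in pattern to PPARGC1A and PNRC1. The lists of ERK outputs and of cell markers served as checks: 14 of 14 ERK output genes fell (SPRY2 -3.92, IER3 -3.51), 3 of 10 melanocyte markers rose (GPR143 0.29, SLC45A2 0.26, MLANA 0.20), 1 of 3 fibroblast markers rose (ACTA2 0.52) and 1 of 2 epithelial markers fell (KRT18 -0.77). Signals of 3′ over 5′ control probe sets lay between 0.868 and 1.00 for GAPDH and between 1.01 and 1.13 for ACTB over all arrays. Figures were drawn with matplotlib 3.10.9.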

Additional observations from a re-analysis of the deposited data

Results flagged for a closer look

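In DMSO, SkMel-19 stood apart from the other 4 lines for 2 members: its PPRC1 signal was 544.7 against 324.1 to 354.1, and its TFAM signal was 1198.5 against 521.9 to 617.7. In both cases the gap to the nearest line took most of the group's range on the log2 scale (0.831 and 0.798 of it, against a limit of 0.710 for 5 values). Of 24 groups examined (8 genes, in DMSO, at 250 nM and as changes) 2 were marked in this way, and chance marks about 1 in 20. Both genes were also highest in SkMel-19 at 250 nM. The TFAM mark is that of the reported _x_at probe set. On the TFAM set that is not of that kind, SkMel-19 stood less far apart in DMSO. Its signal there was 572.7, against 462.5 in SkMel-28 and 281.1 to 333.4 in the other lines. The third TFAM set, also _x_at, had 339.2 in SkMel-19 and 149.3 to 207.2 in the other lines.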

How the results depend on the processing

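Of the 16 alternatives tried at 250 nM, 6 members were called in all except the filter at the upper 40%, where 4 of the 5 members still tested were called (PPRC1, TFB1M and NRF1 were not tested), and the fit without the block. Without the replicate block (cell line) it dropped to 1, PNRC1, with 13 genes called in all. At 1000 nM and at 250 nM in the same 2 lines, 0 members and 0 genes passed without it. Over all genes at 250 nM, the count lay between 1288 (without SkMel-19) and 1836 when 1 line was left out, and was 1339 without Malme3M. At 1000 nM the count over all genes was 445 with no filter, 530 with no variance trend and 460 with dim values raised to the filter level. For 250 nM in those 2 lines it was 430 with no filter and 468 with dim values raised, and 3 members passed each time. The cause of these differences was not tested. One fit of all 12 arrays gives no separate 250 nM value for those 2 lines. Its 2277 genes called at 250 nM rest on all 5 lines.

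The PPARGC1A change in the line with the highest DMSO level minus that in the lowest was 1.21; it was -0.74 with arrays centred on their medians and -0.29 after quantile normalization, since other lines then took those places. Some values that had not passed changed sign. ESRRA at 250 nM was -0.074 as the mean of its probe sets, and ran from -0.050 (without SkMel-1) to 0.095 (without SkMel-5) with 1 line left out, with -0.0076 without SkMel-19, and in SkMel-19 and Malme3M -0.20 as the mean of its probe sets. Between doses, ESRRA was 0.056 as that mean, PPARGC1A -0.0080 after centring, and TFAM -0.00059 with a pseudocount of 50, -0.0088 after centring and -0.0031 in one fit of 12 arrays. Leaving out a line could not be tested in the 6-array comparisons, since 1 line leaves no residual degrees of freedom. Signals near 85.7 or under it give folds that depend on the pseudocount.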
